A study of Mus musculus with 18 samples.

Results

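Mice that had been irradiated and left to recover were compared with control mice through the transcriptomes of their LSK cells after culture without DL1. LSK cells, which lack lineage markers and carry cKit and Sca1, are the bone marrow fraction that holds hematopoietic stem cells and multipotent progenitors. The comparison takes 6 of the 18 libraries of the series, 3 from irradiated and 3 from control C57Bl/6 mice. Of the 25629 gene names in the table, the 11945 with a mean of at least 1 FPKM over these 6 libraries were tested. FPKM are fragments per kilobase of transcript, scaled to the number of mapped fragments.

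Irradiated mice had received a sublethal dose of 2.5 Gy from a caesium source and had at least 9 weeks to recover. Control mice carry the condition normal, although the source field of their samples uses the same prefix as that of the irradiated mice, so titles and conditions were followed. Each library began as a culture of 200 LSK cells from a single mouse, kept for 6 days in murine stem cell factor and human Flt3 ligand, interleukin-11 and interleukin-6. The cells were then sorted again as LSK cells, so that the RNA comes from the culture's progeny that still had this surface phenotype. Neither the sex nor the age of the mice, nor whether a control was sham-treated, is given in the sources used here. Set beside this comparison are irradiated and control cultures that received DL1, taken here as the Notch ligand Delta-like 1, and freshly sorted LSK cells of irradiated and control mice pooled from 3 mice each, with 3 libraries per group.

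Stem cell defects after irradiation are the subject of the study, whose title names C/EBPα and Notch as opposing factors. C/EBPα directs multipotent progenitors toward granulocytes and monocytes and slows their division. Cells on this path lose the stem cell and lymphoid genes and fill azurophil granules with myeloperoxidase and serine proteases. As macrophages they build up lysosomes and genes for taking up dead cells. Notch signalling favours lymphoid fate and can hold back myeloid differentiation.

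The 6 libraries had relative depths of 0.756 to 1 of the first control, read from the step of the lowest values, and summed to between 544392 and 570795 FPKM. Libraries correlated across genes with r of 0.988 to 0.993 within the irradiated group, 0.994 to 0.996 within controls and 0.974 to 0.992 between groups. The sort genes Kit and Ly6a, which encodes Sca1, were present in every library. Kit had 32.3, 37.0 and 37.2 FPKM in irradiated cultures, against 36.5, 36.6 and 31.7 FPKM in control cultures. Both genes overlapped between the groups and were not called. The markers chosen were 4 of B cells, 5 of T and NK cells and 4 of stromal and endothelial cells. All were under 1 FPKM in every library, and the NK receptor gene Ncr1 was listed at 0 throughout. Other genes listed for these lineages, among them Cd79b, Thy1 and Pecam1, passed the filter.

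Irradiation went with a broad shift of moderate size. At an adjusted p under 0.05 by limma, 3601 genes differed between irradiated and control cultures, 30.1% of those tested. Of these, 1694 were higher (14.2% of genes tested) and 1907 lower (16.0%). Counts in the lists of genes given below are to be read against these shares. The groups did not overlap for 4586 genes, or 38.4%. Changes below are given as log2 fold change ± standard error of irradiated over control on the log2(FPKM + 1) scale, which understates the change of low genes. The median over all genes tested was -0.024. In RNA of bulk sorted cells, fewer cells of a type and less RNA per cell cannot be told apart.

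The higher genes changed more per gene than the lower ones. The median change was 0.36 for the higher and -0.26 for the lower genes, and 495 higher against 109 lower genes passed an absolute log2 fold change of 0.5. At a log2 fold change of at least 1, 85 genes remained, 0.712% of those tested, of which 79 were higher and 6 lower. The 6 were Flt3, Hbb-b1, Gem, Snord4a and the predicted genes LOC100503083 and LOC100503605. Higher genes took 16.7% of all FPKM in irradiated and 11.99% in control cultures, and lower genes 18.1% in irradiated and 22.1% in control cultures. The share of lower calls grew with expression, at 7.89% of genes between 1 and 5 FPKM and 25.2% of genes of at least 100 FPKM. The share of higher calls stayed between 13.4 and 15.1% over the same levels.

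**Figure D1:**
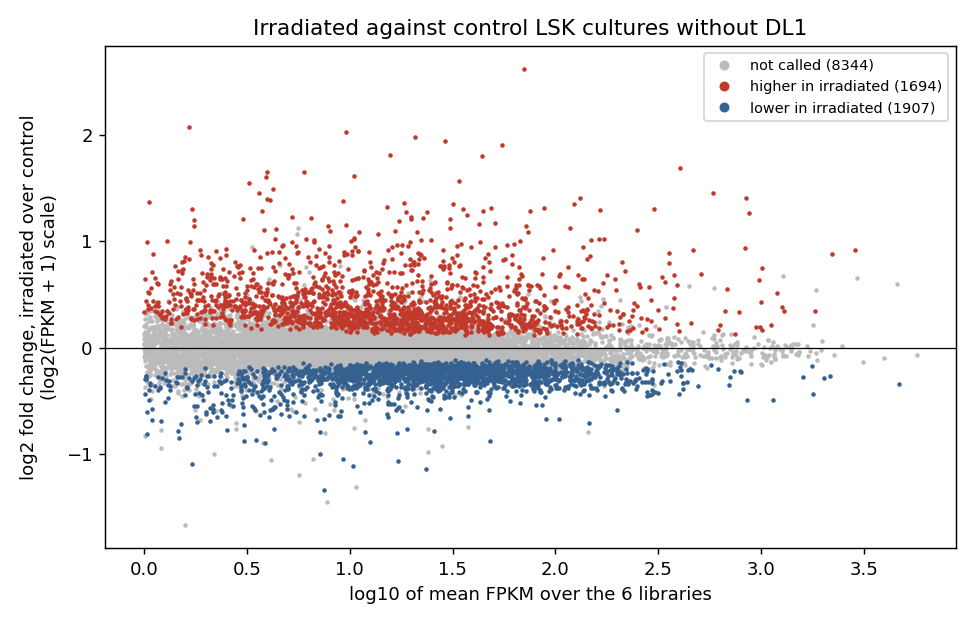
Log2 fold change of irradiated over control cultures (vertical axis) against the log10 of the mean FPKM over the 6 libraries (horizontal axis) for the 11945 genes tested. Red points are the 1694 genes called higher, blue points the 1907 called lower and grey points the rest. Of the called genes with a change of at least 1 in size, 79 lie above 0 and 6 below.

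Scaling each library by its median ratio moved the split to 2034 higher and 1482 lower genes. Fitting only these 6 libraries, without the spread of the DL1 cultures, left 1657 calls, 992 higher and 665 lower. Leaving out control 2 left 1930 calls and leaving out irradiated 1 left 2214. Where 1 library or the fit of 6 libraries ended the call of a gene given with values below, this is said beside it.

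The smallest p among higher genes was that of Cd63, a tetraspanin of lysosomes and secretory granules. It had 247, 241 and 214 FPKM in irradiated cultures, against 94.0, 91.1 and 98.6 FPKM in control cultures. Every irradiated library lay above every control by more than the whole spread within either group (log2 fold change 1.296 ± 0.073, adjusted p = 2.91e-06). Close behind came other myeloid genes. Pglyrp1, a granule protein that binds bacterial peptidoglycan, had 84.5, 89.3 and 77.1 FPKM in irradiated cultures, against 40.4, 44.8 and 41.3 FPKM in control cultures, again far apart (0.97 ± 0.064, adjusted p = 8.83e-06). Hk3, the hexokinase of myeloid cells, had 103, 104 and 93.8 FPKM in irradiated cultures, against 47.1, 46.8 and 46.1 FPKM in control cultures. The controls were almost identical to each other and all irradiated libraries lay far above them (1.09 ± 0.075, adjusted p = 1.21e-05).

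Myl10, a myosin light chain gene, had 31.1, 37.4 and 32.1 FPKM in irradiated cultures, against 6.51, 8.80 and 8.01 FPKM in control cultures. It changed the most among the 12 higher genes of smallest p (1.98 ± 0.13, adjusted p = 8.58e-06). Bpifc, a member of the family of bactericidal and lipid-binding proteins that the table lists under an older name, had 4.84, 5.93 and 5.17 FPKM in irradiated cultures, against 1.28, 1.16 and 1.03 FPKM in control cultures, without overlap (1.55 ± 0.11, adjusted p = 1.71e-05). Hdc, which makes histamine from histidine, had 15.5, 18.1 and 15.8 FPKM in irradiated cultures, against 8.27, 8.001 and 8.78 FPKM in control cultures, and Tcn2, the carrier of vitamin B12, had 77.8, 76.3 and 65.2 FPKM in irradiated cultures, against 41.2, 38.7 and 41.7 FPKM in control cultures. Both were separated in all libraries, with changes of 0.90 ± 0.079 and 0.83 ± 0.075. F7, coagulation factor VII, rose by 1.28 ± 0.12 and Vat1, a membrane trafficking protein, by 0.58 ± 0.051.

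The largest shifts in absolute abundance were in granulocyte and macrophage products. Lyz2, lysozyme of myeloid cells and the gene with the largest rise in FPKM, whose reads could be shared with its near-identical neighbour Lyz1, had 4548, 3635 and 3073 FPKM in irradiated cultures, against 1969.9, 1629 and 2346 FPKM in control cultures. Its lowest irradiated library, the third, lay above the highest control, also the third (0.92 ± 0.18, adjusted p = 0.00403). Mpo, the peroxidase of azurophil granules, had 2726, 3218 and 2646 FPKM in irradiated cultures, against 1647, 1683 and 1334 FPKM in control cultures (0.88 ± 0.10, adjusted p = 0.000209). S100a8 and S100a9, which form the calcium-binding alarmin calprotectin, rose by 1.41 ± 0.18 and 1.45 ± 0.20. S100a8 had 1229.8, 1557 and 924 FPKM in irradiated cultures, against 437, 471 and 458 FPKM in control cultures, with the third irradiated library lowest but still well above controls. Saa3, an acute phase protein made by macrophages, had 1346, 1022 and 905 FPKM in irradiated cultures, against 508, 479.6 and 724 FPKM in control cultures (0.94 ± 0.23, adjusted p = 0.0106), and control 3 came within reach of the irradiated range.

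Azurophil granule genes rose together. Of the azurophil list, 11 of 13 tested members were higher, with a median log2 fold change of 0.63 against -0.024 over all genes tested. Elane, neutrophil elastase, had 1205, 1465 and 1032 FPKM in irradiated cultures, against 518, 538 and 473 FPKM in control cultures (1.26 ± 0.14, adjusted p = 0.000209). Prtn3, proteinase 3, had 1305, 1515 and 1375 FPKM in irradiated cultures, against 957, 1035 and 933 FPKM in control cultures, and Srgn, the proteoglycan serglycin on which granule proteases are packed, had 794, 888 and 742 FPKM in irradiated cultures, against 558, 559.6 and 529.7 FPKM in control cultures. The irradiated range lay above the control range for both, at 0.52 ± 0.070 and 0.55 ± 0.069. Nkg7, a granule membrane protein also known from cytotoxic lymphocytes, had 48.0, 60.9 and 44.2 FPKM in irradiated cultures, against 18.9, 21.7 and 19.1 FPKM in control cultures (1.304 ± 0.11, adjusted p = 8.45e-05). The members not called were Ctsc, the activator of these proteases, and Cpa3, a mast cell carboxypeptidase. A pair of list names had no row.

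Genes of later granules rose in part. Of this list, 13 of 20 tested members were higher and the median was 0.47. Padi4, which citrullinates histones in neutrophils, had 21.0, 22.1 and 23.4 FPKM in irradiated cultures, against 7.26, 9.56 and 8.09 FPKM in control cultures (1.32 ± 0.17, adjusted p = 0.000472). Chil3, a chitinase-like protein of neutrophils and macrophages, had 82.4, 77.8 and 47.9 FPKM in irradiated cultures, against 18.7, 15.8 and 22.0 FPKM in control cultures, lower in the third irradiated library than in the others (1.80 ± 0.26, adjusted p = 0.000768). Lcn2, an iron-siderophore binding protein, had 156, 144 and 158 FPKM in irradiated cultures, against 124, 115 and 117 FPKM in control cultures (0.36 ± 0.055, adjusted p = 0.00104). Members not called included Mmp8, Cxcr2 and Camp. The count fell to 8 without control 2, irradiated 1 or irradiated 2, and to 8 with only these 6 libraries fitted. Neutrophil markers summed to 356 to 538 FPKM in irradiated and 322 to 411 FPKM in control cultures. Most of that sum was Mmp8, which was not called, in every library. Of 6 tested markers 3 were higher, and Ly6g and Mmp9 stayed under 1 FPKM. All irradiated libraries lay above all controls for Ngp and Cd177, whereas Ltf, Camp, Mmp8 and Cxcr2 overlapped between the groups.

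Within the C/EBP family, the granulocyte members rose. Cebpe, which drives late granule genes, had 32.2, 37.7 and 26.7 FPKM in irradiated cultures, against 13.1, 13.3 and 12.96 FPKM in control cultures (1.22 ± 0.14, adjusted p = 0.000271). Cebpa had 73.1, 79.8 and 76.8 FPKM in irradiated cultures, against 50.4, 55.3 and 49.5 FPKM in control cultures. All irradiated libraries lay above all controls (0.56 ± 0.083, adjusted p = 0.000874). Cebpd, Cebpb and Cebpg were not called: Cebpd had 23.1, 21.1 and 21.4 FPKM in irradiated and 18.99, 18.1 and 20.2 FPKM in control cultures, close but apart (0.19 ± 0.093, adjusted p = 0.151), and the other genes overlapped between the groups with changes of -0.063 ± 0.25 and -0.043 ± 0.048. Cebpz, a nuclear factor that shares the family's name, was lower (-0.19 ± 0.057, adjusted p = 0.027), a call lost without control 1, control 2 or irradiated 1 (adjusted p up to 0.121) or with only these 6 libraries fitted (adjusted p = 0.112).

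Other myeloid transcription factors were also higher. Gfi1, a repressor needed for neutrophil formation, had 42.9, 50.8 and 39.3 FPKM in irradiated cultures, against 22.9, 24.3 and 19.7 FPKM in control cultures (0.96 ± 0.10, adjusted p = 0.000143). Maf, which promotes macrophage identity, had 31.5, 25.5 and 16.6 FPKM in irradiated cultures, against 10.3, 7.57 and 12.1 FPKM in control cultures. The third irradiated library was nearest to controls (1.19 ± 0.19, adjusted p = 0.0014). Spi1, the myeloid factor PU.1, was higher by little and overlapped between the groups (0.19 ± 0.061, adjusted p = 0.0394), and its call was lost without control 1, control 2, irradiated 1 or irradiated 3 (adjusted p up to 0.142) or with only these 6 libraries fitted (adjusted p = 0.147). In all, 7 of 15 tested members of the list of granulocyte and monocyte factors were higher, and 4 with only these 6 libraries fitted. Cbfb, the partner of Runx factors, was lower (-0.19 ± 0.048, adjusted p = 0.0132), a call lost without control 2 (adjusted p up to 0.0506) or with only these 6 libraries fitted (adjusted p = 0.0556).

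**Figure D2:**
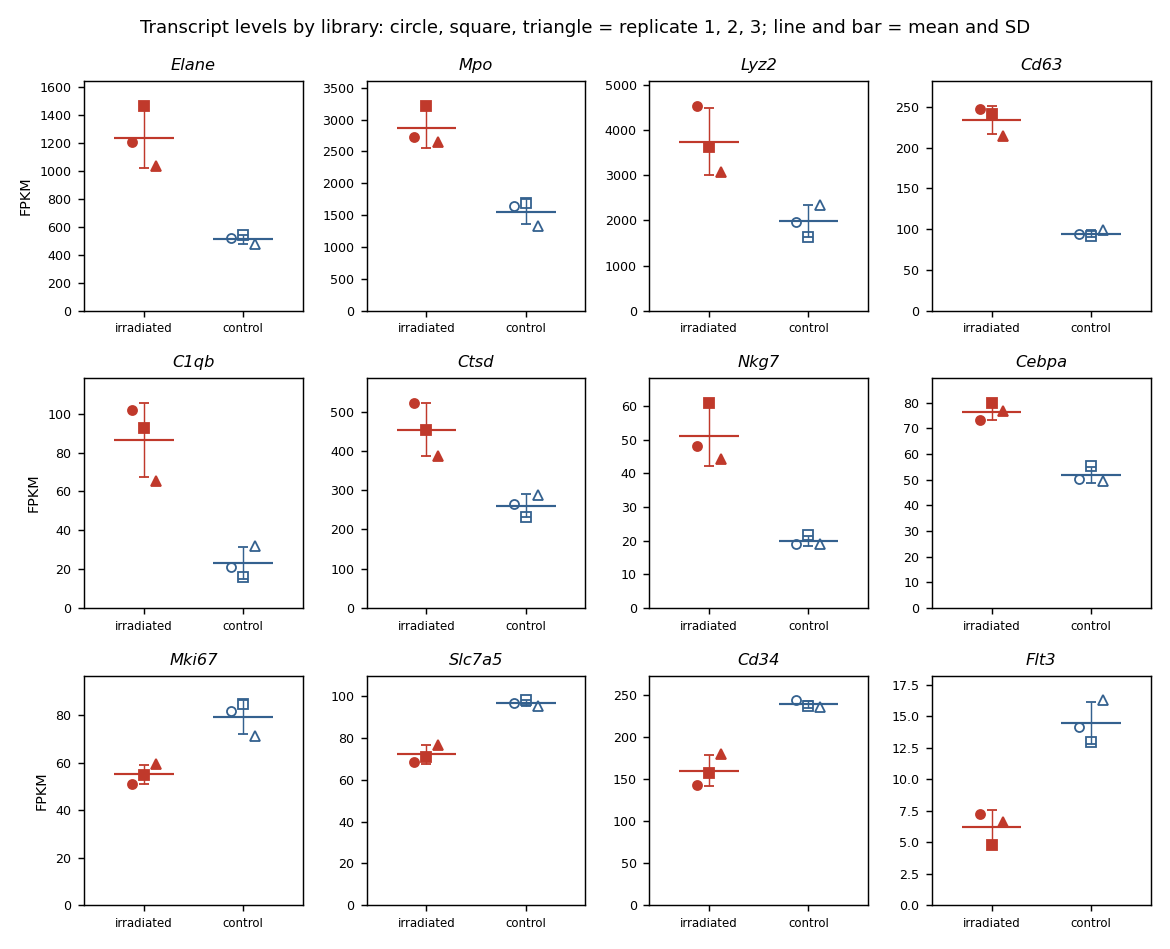
FPKM in each library for 12 genes, with irradiated cultures in red on the left and control cultures in blue on the right of each panel; circles, squares and triangles are replicates 1, 2 and 3, lines are means and bars SD (n = 3). Irradiated libraries lie above controls for the first 8 genes and below them for Mki67, Slc7a5, Cd34 and Flt3, with no overlap in any panel.

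Macrophage genes rose by more than the granule genes in median, without a test of that difference. Of the monocyte and macrophage list, 22 of 26 tested members were higher, with a median of 0.82. Mrc1, the mannose receptor CD206, had 33.6, 27.6 and 14.0 FPKM in irradiated cultures, against 6.29, 3.91 and 8.63 FPKM in control cultures (1.81 ± 0.28, adjusted p = 0.000997). Gpnmb, a glycoprotein of lysosome-rich macrophages, had 222, 187 and 161 FPKM in irradiated cultures, against 70.0, 53.4 and 92.6 FPKM in control cultures, and Trem2, a receptor for lipids and cell debris, had 61.8, 50.8 and 44.7 FPKM in irradiated cultures, against 21.3, 16.7 and 27.0 FPKM in control cultures. Both were separated between the groups, at 1.41 ± 0.20 and 1.25 ± 0.19. Ms4a7 rose by 1.31 ± 0.20 and the monocyte surface gene Ly6c2 by 1.10 ± 0.15. Csf1r, the receptor for macrophage colony-stimulating factor, had 297, 218 and 199 FPKM in irradiated cultures, against 153, 121 and 181 FPKM in control cultures (0.64 ± 0.17, adjusted p = 0.0137), a call lost without control 2 or irradiated 1 (adjusted p up to 0.0622). Itgam, Itgax, Ccr2 and Cx3cr1 were not called.

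A set of 12 macrophage markers, which includes Csf1r and Mrc1 themselves, summed to 517 to 802 FPKM in irradiated and 262 to 408 FPKM in control cultures. All 10 tested markers were higher, while Marco and Vsig4 were at or near 0. Libraries with the highest sums were irradiated 1 and 2, and the lowest was control 2. The part of macrophage content in this and the other myeloid changes was not tested.

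Genes for complement and for the uptake of dying cells rose in parallel. Of that list, 12 of 16 tested members were higher, with a median of 0.95. C1qb, a chain of the complement recognition protein C1q, had 102, 92.9 and 65.3 FPKM in irradiated cultures, against 21.1, 15.9 and 31.9 FPKM in control cultures. All irradiated libraries lay far above the highest control, the third (1.90 ± 0.23, adjusted p = 0.000305). C1qc and C1qa, the other chains, rose by 1.94 ± 0.24 and 1.61 ± 0.21. Gas6, the bridge between dying cells and the receptors Mertk and Axl, had 7.78, 6.67 and 5.12 FPKM in irradiated cultures, against 1.33, 0.927 and 1.99 FPKM in control cultures (1.65 ± 0.16, adjusted p = 9.47e-05). C5ar1, the receptor for the complement fragment C5a, had 33.4, 29.0 and 19.1 FPKM in irradiated cultures, against 9.53, 8.69 and 11.0 FPKM in control cultures (1.36 ± 0.15, adjusted p = 0.000209). Axl and the related bridge Pros1 were not called. Stab2, Timd4 and Cd36 were below the filter.

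Of all lists, that of lysosomal genes had the most members called higher. Of the 31 listed, 29 were tested and 25 were higher, with a median of 0.57. Ctsd, the aspartic protease cathepsin D, had 522, 452 and 387 FPKM in irradiated cultures, against 263, 230.3 and 288 FPKM in control cultures (0.79 ± 0.096, adjusted p = 0.000301). Ctsb and Ctsl, cysteine cathepsins, had 288, 218 and 186 FPKM in irradiated cultures, against 113, 91.7 and 133 FPKM in control cultures, and 237, 208 and 153 FPKM in irradiated cultures, against 101, 81.4 and 112 FPKM in control cultures. In both the groups were apart, with irradiated 3 lowest of its group and control 2 lowest of all (1.02 ± 0.15 and 1.01 ± 0.14). Naglu, which degrades heparan sulfate, had 16.8, 15.3 and 13.5 FPKM in irradiated cultures, against 9.42, 8.60 and 10.6 FPKM in control cultures (0.62 ± 0.089, adjusted p = 0.000723). Tfeb, the transcription factor that coordinates lysosomal genes, was among the 4 members not called, with Ctsz, Asah1 and Atp6v1h.

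Lipid handling genes rose as well. 17 of 18 tested members were higher (median 0.56), and 11 without control 2. Apoe, an apolipoprotein secreted by macrophages, had 746, 649 and 459 FPKM in irradiated cultures, against 181, 149 and 243 FPKM in control cultures (1.69 ± 0.18, adjusted p = 0.000149). Apoc2, an activator of lipoprotein lipase, had 39.5, 36.8 and 26.2 FPKM in irradiated cultures, against 14.1, 11.2 and 14.9 FPKM in control cultures (1.28 ± 0.18, adjusted p = 0.000631). Npc1, which moves cholesterol out of lysosomes, had 19.4, 16.3 and 14.7 FPKM in irradiated cultures, against 11.4, 9.32 and 11.0 FPKM in control cultures (0.62 ± 0.098, adjusted p = 0.00122). Fabp4, a fatty acid binding protein, was low, with 1.61, 1.86 and 1.64 FPKM in irradiated cultures, against 0.540, 0.238 and 0.323 FPKM in control cultures (0.99 ± 0.10, adjusted p = 0.000135). It passed the filter only through the irradiated cultures, and the 17 include it. The sterol-sensing receptor Nr1h3 was the member not called. Cholesterol synthesis genes did not rise: 6 of 21 were lower (median -0.068), led by Cyp51 at -0.23 ± 0.050, and this count was 3 without control 1, 1 without control 2, 2 without irradiated 1, 3 without irradiated 2 and 1 with only these 6 libraries fitted.

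Iron and heme genes were higher in part. Slc40a1, the iron exporter ferroportin, had 15.9, 14.1 and 11.6 FPKM in irradiated cultures, against 4.94, 3.61 and 5.65 FPKM in control cultures (1.38 ± 0.13, adjusted p = 0.000107). Slc11a1, which pumps iron out of phagosomes, had 12.2, 9.24 and 7.14 FPKM in irradiated cultures, against 3.34, 2.49 and 4.75 FPKM in control cultures (1.22 ± 0.18, adjusted p = 0.000839). Ftl1, the ferritin light chain, and Hmox1, which breaks down heme, rose by 0.34 ± 0.076 and 0.59 ± 0.10. Of the list, 8 of 19 tested members were higher (median 0.16). Of 17 listed genes of alternative macrophage activation 11 were tested. Retnla, Ccl17, Ccl24 and Alox15, also linked to this state, were below the filter. Higher were 7 of the 11 (median 1.02), among them Mrc1 and Chil3, which are in other lists as well. They included Tgm2, a transglutaminase, at 63.4 ± 10.9 FPKM in irradiated and 25.2 ± 1.77 FPKM in control cultures (SD, n = 3 each; 1.28 ± 0.12, adjusted p = 9.47e-05), and the lectins Mgl2 and Clec10a at 1.21 ± 0.15 and 1.02 ± 0.17.

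Receptors for microbes, chemokines and cytokines rose in part. Toll-like receptors and adaptors were higher in 11 of 19 cases (median 0.36). Tlr1 and Tlr7, for bacterial lipopeptides and single-stranded RNA, had 17.9, 12.5 and 11.1 FPKM in irradiated cultures, against 6.96, 5.64 and 7.85 FPKM in control cultures, and 12.8, 10.9 and 7.98 FPKM in irradiated cultures, against 5.71, 4.16 and 6.24 FPKM in control cultures. The groups were apart in both (0.91 ± 0.15 and 0.86 ± 0.15). The count was 3 without control 2, 4 without irradiated 1, 7 without irradiated 2 and 4 with only these 6 libraries fitted. Among cytokine receptors 10 of 20 were higher and 2 lower (median 0.29). Tnfrsf1b, a receptor of tumour necrosis factor, had 92.0, 82.1 and 81.4 FPKM in irradiated cultures, against 54.0, 50.6 and 54.6 FPKM in control cultures (0.67 ± 0.069, adjusted p = 0.000135), Ifngr1 rose by 0.53 ± 0.076 and Csf2ra, of the receptor for GM-CSF, by 0.57 ± 0.10. The number higher was 5 without control 2, 6 without irradiated 1 and 6 with only these 6 libraries fitted. The lower members were Flt3 and Il1r1 (-0.55 ± 0.082, adjusted p = 0.000934).

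Glutathione transferases were higher in part. Of 15 tested, 7 were higher (median 0.20). Gstm1 had 209.5, 237 and 206 FPKM in irradiated cultures, against 118, 109.6 and 92.6 FPKM in control cultures (1.02 ± 0.088, adjusted p = 8.45e-05) and Mgst2, a microsomal member that also makes leukotriene C4, had 63.8, 75.001 and 63.1 FPKM in irradiated cultures, against 35.6, 34.7 and 32.8 FPKM in control cultures (0.95 ± 0.093, adjusted p = 0.000107). Gstm3, named by its small p and not in the list, rose by 0.87 ± 0.076. The Gstm genes are close paralogs, so that reads could be split between them. The antioxidant list went both ways, with 7 of 24 higher and 6 lower. Prdx5 rose (0.57 ± 0.062, adjusted p = 0.000178), whereas Txnrd1 and the cystine transporter Slc7a11 fell (-0.39 ± 0.068 and -0.33 ± 0.071). The number higher was 4 without control 2, without irradiated 2 or with only these 6 libraries fitted, and the number lower was 3 without control 3, without either irradiated 1 or 2, or with only these 6 libraries fitted.

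Some mast cell, eosinophil and platelet genes were also higher. Mast cell and basophil genes rose in 7 of 14 cases (median 0.51). The 7 markers of these cells summed to 127 to 142 FPKM in irradiated and 74.4 to 89.8 FPKM in control cultures. Most of that sum was Mcpt8 in every library. Of the 7 markers, 3 were called higher, while the mast cell proteases Cma1 and Tpsb2 overlapped between the groups. Mcpt8, a basophil protease, had 66.6, 91.3 and 94.7 FPKM in irradiated cultures, against 49.6, 54.4 and 43.2 FPKM in control cultures (0.76 ± 0.13, adjusted p = 0.00215), highest in irradiated 3. Prg2, the major basic protein of eosinophils, was the 1 eosinophil gene above the filter and had 7.77, 8.63 and 3.05 FPKM in irradiated cultures, against 1.08, 0.836 and 2.19 FPKM in control cultures. Irradiated 3 was close to control 3 (1.60 ± 0.35, adjusted p = 0.00653). Pf4 and Ppbp, platelet chemokines, had 201, 186 and 145 FPKM in irradiated cultures, against 68.3, 58.6 and 79.8 FPKM in control cultures, and 59.9, 55.3 and 38.3 FPKM in irradiated cultures, against 17.8, 12.3 and 19.9 FPKM in control cultures. Both were well separated between the groups (1.35 ± 0.14 and 1.56 ± 0.20). Of 12 megakaryocyte genes tested 4 were higher (median 0.15), including Itga2b, the platelet integrin CD41 (0.63 ± 0.099, adjusted p = 0.00117). The 6 megakaryocyte markers summed to 161 to 217 FPKM in irradiated and 68.8 to 89.4 FPKM in control cultures, and most of that sum was Pf4.

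Of 4 erythroid genes tested, 1 was higher and 1 lower. Hbb-b1, beta-globin, had 8.25, 14.0 and 22.5 FPKM in irradiated cultures, against 28.6, 34.3 and 32.5 FPKM in control cultures, lowest in irradiated 1 (-1.14 ± 0.38, adjusted p = 0.0385). This call was lost without control 1, control 2, control 3, irradiated 1 or irradiated 2 (adjusted p up to 0.159). Gata1, shared by erythroid, mast and megakaryocyte precursors, was higher at 1.32, 1.34 and 1.73 FPKM in irradiated and 0.913, 0.885 and 0.807 FPKM in control cultures (0.39 ± 0.095, adjusted p = 0.0102). It passed the filter only through the irradiated cultures. Klf1 and Alas2 were under 1 FPKM in all libraries.

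Among the lower genes, the smallest p belonged to Aqp9, a channel for water and glycerol. It had 8.21, 8.24 and 9.09 FPKM in irradiated cultures, against 16.6, 15.9 and 17.1 FPKM in control cultures, with little spread in either group (-0.88 ± 0.049, adjusted p = 2.91e-06). Ptk7, a Wnt co-receptor on progenitors, had 4.57, 4.19 and 4.69 FPKM in irradiated cultures, against 9.49, 10.3 and 9.98 FPKM in control cultures (-0.99 ± 0.073, adjusted p = 1.71e-05). Ccnd1, cyclin D1, had 19.9, 17.6 and 18.3 FPKM in irradiated cultures, against 32.4, 30.9 and 34.7 FPKM in control cultures (-0.78 ± 0.075, adjusted p = 0.0001). All irradiated libraries lay below all controls for these genes. Mef2c and Tcf4, factors of lymphoid and dendritic development, had 10.4, 9.78 and 9.98 FPKM in irradiated cultures, against 14.8, 14.3 and 15.3 FPKM in control cultures, and 10.8, 9.95 and 11.0 FPKM in irradiated cultures, against 16.0, 14.6 and 15.2 FPKM in control cultures. Their changes were -0.52 ± 0.056 and -0.49 ± 0.053. Bcat1, which transaminates branched-chain amino acids, changed by -0.68 ± 0.066, Abcb1b, a drug efflux pump of stem cells, by -0.57 ± 0.066, and the nucleosome-binding Hmgn1 by -0.67 ± 0.079.

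Stem and progenitor surface genes were divided. Flt3, the receptor of the Flt3 ligand in the medium and a mark of lymphoid-primed progenitors, had 7.27, 4.78 and 6.64 FPKM in irradiated cultures, against 14.2, 13 and 16.3 FPKM in control cultures (-1.11 ± 0.13, adjusted p = 0.000272). Cd34, a sialomucin of progenitors, had 143, 157 and 179 FPKM in irradiated cultures, against 243, 237 and 235 FPKM in control cultures, in opposite order to the macrophage markers across the irradiated libraries (-0.58 ± 0.067, adjusted p = 0.000247). Egfl7, a secreted protein of endothelium and stem cells, had 26.5, 31.8 and 43.7 FPKM in irradiated cultures, against 58.1, 64.6 and 63.6 FPKM in control cultures (-0.88 ± 0.14, adjusted p = 0.00127). In the list, 6 of 19 tested members were lower and 2, Cd37 and Cxcr4, were higher at 0.31 ± 0.043 and 0.32 ± 0.046 (median 0.024; 5 higher without irradiated 3). Procr, Esam, Slamf1 and Fgd5 were among the members below the filter.

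Transcription factors of stem cells were lower in part. 7 of 22 tested members were lower (median -0.15). Meis1, a Hox cofactor, had 5.45, 5.68 and 7.24 FPKM in irradiated cultures, against 8.55, 8.80 and 8.49 FPKM in control cultures (-0.44 ± 0.085, adjusted p = 0.00339). Hmga2, a chromatin protein of growing stem cells, had 2.19, 3.70 and 3.76 FPKM in irradiated cultures, against 5.31, 5.23 and 5.02 FPKM in control cultures, lowest in irradiated 1 (-0.58 ± 0.13, adjusted p = 0.00719). Calls of Msi2, Hoxa7 and Sox4 were each lost without several single libraries, among them irradiated 1, at adjusted p up to 0.0738, 0.0734 and 0.142. The count was 3 without control 1, 2 without control 2 or irradiated 1, 4 without control 3 or irradiated 2, 3 with only these 6 libraries fitted and 4 with median-ratio scaling. The 3 Gimap genes above the filter, GTPases of lymphocytes, were all lower; Gimap6 had 1.45, 2.74 and 3.22 FPKM in irradiated cultures, against 5.32, 5.25 and 5.35 FPKM in control cultures (-0.90 ± 0.15, adjusted p = 0.0015) and Gimap1 changed by -0.57 ± 0.13. Lymphoid priming genes were lower in 6 of 10 cases (median -0.20), among them Satb1 (-0.38 ± 0.086) and Cd79b (-0.43 ± 0.093).

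Mitotic genes were lower almost throughout. 34 of 41 tested members were called, and all 41 had a negative change (median -0.32). Mki67, the marker Ki-67 of dividing cells, had 51.1, 54.9 and 59.3 FPKM in irradiated cultures, against 81.8, 84.8 and 71.2 FPKM in control cultures (-0.52 ± 0.071, adjusted p = 0.0006). Top2a, which untangles DNA before division, had 114, 125 and 132 FPKM in irradiated cultures, against 176, 169.9 and 157 FPKM in control cultures, and the checkpoint kinase gene Bub1b had 35.7, 37.1 and 42.7 FPKM in irradiated cultures, against 54.6, 52.96 and 54.3 FPKM in control cultures. No library of either group crossed over (-0.44 ± 0.061 and -0.48 ± 0.067). Nusap1 and Kif20a, of the spindle, changed by -0.41 ± 0.057 and -0.41 ± 0.064.

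**Figure D3:**
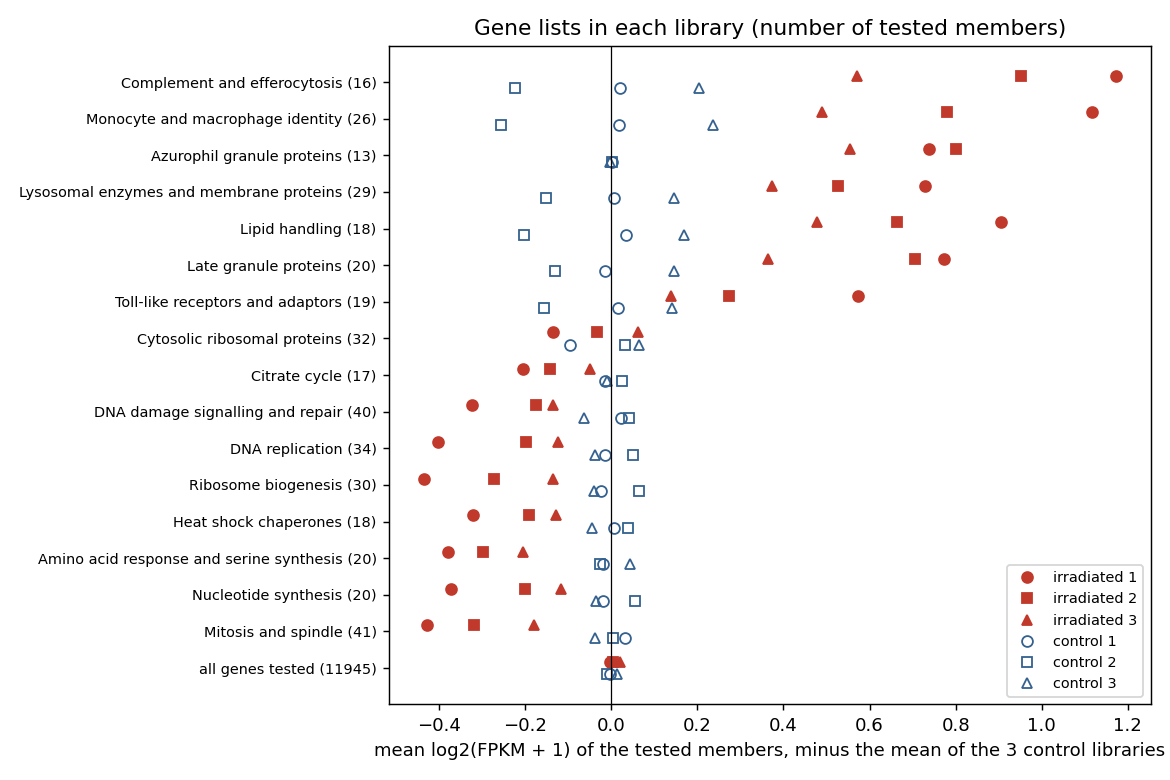
Mean log2(FPKM + 1) of the tested members of 16 gene lists and of all genes tested, in each library, minus the mean of the 3 control libraries; red filled symbols are irradiated and blue open symbols control libraries, by replicate. Irradiated libraries lie to the right of all controls for the upper 6 lists and to the left for the 8 lists from citrate cycle to mitosis, with irradiated 3 nearest to controls in each, while Toll-like receptors and ribosomal proteins overlap.

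DNA replication genes were lower as well. 26 of 34 tested members were called and all 34 had a negative change (median -0.25). Uhrf1, which guides maintenance DNA methylation, had 64.0, 72.9 and 74.1 FPKM in irradiated cultures, against 89.3, 93.4 and 88.9 FPKM in control cultures (-0.36 ± 0.053, adjusted p = 0.000828), and Rrm2, a subunit of ribonucleotide reductase, had 104, 123.2 and 124 FPKM in irradiated cultures, against 148, 156 and 144 FPKM in control cultures (-0.35 ± 0.064, adjusted p = 0.00248). Pclaf, a partner of the replication clamp, had 64.3, 71.0 and 75.02 FPKM in irradiated cultures, against 105, 102 and 101 FPKM in control cultures (-0.54 ± 0.063, adjusted p = 0.000247). The count was 16 without control 1, 10 without control 2, 15 without irradiated 1 and 5 with only these 6 libraries fitted. Around G1, Ccne1, cyclin E1, had 12.7, 14.0 and 14.9 FPKM in irradiated cultures, against 19.4, 21.8 and 21.3 FPKM in control cultures (-0.55 ± 0.071, adjusted p = 0.000406). Of the G1 list 7 of 21 were lower, 4 without control 2, without irradiated 1 or with only these 6 libraries fitted, and 2 were higher (median -0.15). Cdkn1a, the p53 target p21, had 60.5, 46.7 and 64.2 FPKM in irradiated cultures, against 50.8, 43.4 and 59.6 FPKM in control cultures, with overlapping groups (0.15 ± 0.12, adjusted p = 0.381).

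DNA repair genes shared the direction of the cell cycle genes. 25 of 40 tested members were lower (median -0.22). Bard1, the partner of Brca1, had 4.99, 5.54 and 4.83 FPKM in irradiated cultures, against 7.14, 7.14 and 6.66 FPKM in control cultures (-0.38 ± 0.065, adjusted p = 0.00174). Chek1, the checkpoint kinase of replication stress, had 8.49, 10.1 and 9.89 FPKM in irradiated cultures, against 12.8, 12.8 and 11.3 FPKM in control cultures (-0.34 ± 0.070, adjusted p = 0.00452), and Parp1, which marks DNA breaks, changed by -0.26 ± 0.048. The count was 13 without control 1, 12 without control 2 or irradiated 1 and 7 with only these 6 libraries fitted. Targets of p53 were split, with 7 of 27 higher and 2 lower (median 0.084), beside 14.2% higher and 16.0% lower of all genes tested. Perp and Trp53inp1 were higher (0.50 ± 0.10 and 0.54 ± 0.12) and Ckap2 lower (-0.41 ± 0.076). The number of p53 targets higher was 3 without control 2, without irradiated 1 or with only these 6 libraries fitted, and the number lower was 1 without irradiated 1 or 2 and 6 without irradiated 3.

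Promoters are shown, from 250 bases before to 50 after the start of transcription, for 4 of the mitotic genes above, which moved together, and for Cebpa and Nkg7 from the C/EBP and azurophil lists. The motifs are those of factors known to act on such genes. Capitals mark CCAAT, the CCAAT box bound by NF-Y, and TTTGAA, the core of the cell cycle homology region, on either strand. The C/EBP motif TTGCNNAA was searched as well and is in none of the 6. Sequences are from RefSeq, build GRCm38.p6, read in the direction of the gene: Cebpa at chr7:35119043-35119342, plus strand; Nkg7 at chr7:43436888-43437187, plus strand; Mki67 at chr7:135716330-135716629, minus strand; Nusap1 at chr2:119618048-119618347, plus strand; Top2a at chr11:99024140-99024439, minus strand; and Bub1b at chr2:118597961-118598260, plus strand.
Cebpa: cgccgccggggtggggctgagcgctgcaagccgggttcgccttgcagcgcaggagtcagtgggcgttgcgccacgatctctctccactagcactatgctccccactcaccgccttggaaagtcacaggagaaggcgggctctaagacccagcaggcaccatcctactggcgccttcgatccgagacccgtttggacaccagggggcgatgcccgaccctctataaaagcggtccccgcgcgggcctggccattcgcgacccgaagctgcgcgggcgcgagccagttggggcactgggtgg
Nkg7: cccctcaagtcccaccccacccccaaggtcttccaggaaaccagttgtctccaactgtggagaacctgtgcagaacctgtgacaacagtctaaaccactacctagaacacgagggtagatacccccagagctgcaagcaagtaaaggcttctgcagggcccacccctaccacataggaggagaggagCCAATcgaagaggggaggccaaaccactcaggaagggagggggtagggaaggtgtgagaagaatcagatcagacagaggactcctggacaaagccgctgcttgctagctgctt
Mki67: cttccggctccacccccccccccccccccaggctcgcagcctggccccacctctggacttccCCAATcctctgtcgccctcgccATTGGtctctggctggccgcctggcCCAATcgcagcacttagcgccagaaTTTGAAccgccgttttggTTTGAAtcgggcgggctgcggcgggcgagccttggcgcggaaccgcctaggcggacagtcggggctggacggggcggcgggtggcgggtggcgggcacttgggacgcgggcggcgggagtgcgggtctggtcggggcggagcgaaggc
Nusap1: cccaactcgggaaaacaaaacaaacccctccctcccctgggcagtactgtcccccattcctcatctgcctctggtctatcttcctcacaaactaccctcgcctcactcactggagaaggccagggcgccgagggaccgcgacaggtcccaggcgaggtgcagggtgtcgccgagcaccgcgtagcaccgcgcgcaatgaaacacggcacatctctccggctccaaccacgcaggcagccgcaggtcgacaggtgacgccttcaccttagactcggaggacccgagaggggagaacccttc
Top2a: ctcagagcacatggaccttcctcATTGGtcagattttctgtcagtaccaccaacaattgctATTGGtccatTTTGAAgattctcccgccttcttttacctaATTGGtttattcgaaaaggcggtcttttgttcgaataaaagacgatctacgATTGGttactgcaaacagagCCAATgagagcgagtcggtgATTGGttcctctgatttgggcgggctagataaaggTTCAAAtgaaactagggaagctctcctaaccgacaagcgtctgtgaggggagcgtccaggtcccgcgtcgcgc
Bub1b: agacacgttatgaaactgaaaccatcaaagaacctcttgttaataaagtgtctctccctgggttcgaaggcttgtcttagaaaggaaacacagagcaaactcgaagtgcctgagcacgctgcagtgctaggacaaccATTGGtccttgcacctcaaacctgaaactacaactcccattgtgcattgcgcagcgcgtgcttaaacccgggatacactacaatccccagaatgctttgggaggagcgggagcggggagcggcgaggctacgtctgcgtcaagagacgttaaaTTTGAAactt

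The Mki67 promoter held 3 CCAAT and 2 TTTGAA matches, Top2a 6 and 2, and Bub1b 1 of each, whereas Nusap1 held neither. Over the mitosis list, 27 of 36 promoters held CCAAT and 27 of 36 held TTTGAA. Among promoters of genes tested the shares were 38.4% and 12.5%, and among the promoters of all annotated genes 37.4% and 17.9%. Replication genes held CCAAT in 59.4% and TTTGAA in 12.5%. TTTGAA was in 11.0% of promoters of higher genes and 16.5% of promoters of lower genes. TTGCNNAA was in 11.2% of promoters of higher genes, 7.56% of lower genes and 8.69% of genes tested, against 10.8% of all promoters. These are matches of letters in a window, on either strand, with motifs counted separately and overlaps allowed.

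Genes that build ribosomes were lower, while the ribosomal proteins themselves were not called. Of the ribosome biogenesis list, 26 of 30 tested members were lower and all 30 had a negative change (median -0.28). Ncl, nucleolin, had 216, 247 and 269 FPKM in irradiated cultures, against 339, 347 and 309 FPKM in control cultures (-0.45 ± 0.070, adjusted p = 0.00115). Npm1, nucleophosmin, had 1332, 1571 and 1658 FPKM in irradiated cultures, against 2061, 2123 and 1964 FPKM in control cultures (-0.44 ± 0.073, adjusted p = 0.00162), and pseudogenes could share its reads. Polr1a, the large subunit of RNA polymerase I, and Ddx21, a nucleolar helicase, changed by -0.27 ± 0.055 and -0.34 ± 0.063. The count was 10 without control 2 and 9 with only these 6 libraries fitted. Of 32 cytosolic ribosomal protein genes, 0 were called by limma and 1 had an unadjusted p under 0.05 (median -0.045), while 4 were lower without irradiated 3. Rpl3 came closest, with 769, 847 and 909 FPKM in irradiated and 913, 959 and 929 FPKM in control cultures (-0.15 ± 0.061, adjusted p = 0.0758).

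Precursors for nucleotides and amino acids followed ribosome biogenesis. 13 of 20 tested genes of nucleotide synthesis were lower (median -0.29), and 8 with only these 6 libraries fitted. Paics, Gart and Atic, all enzymes of purine synthesis, fell together. Paics had 139, 152 and 170.4 FPKM in irradiated cultures, against 193, 196 and 188 FPKM in control cultures (-0.32 ± 0.062, adjusted p = 0.00332), and Gart and Atic changed by -0.30 ± 0.054 and -0.31 ± 0.056. Impdh1, one of the paralogs that commit to guanine nucleotides, went the other way at 54.8, 56.7 and 52.4 FPKM in irradiated cultures, against 40.8, 42.1 and 43.0 FPKM in control cultures (0.37 ± 0.054, adjusted p = 0.000795); its paralog Impdh2 was among the lower genes.

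Serine, one-carbon and amino acid response genes were lower in 15 of 20 cases (median -0.29). Mthfd2, the mitochondrial folate enzyme of proliferating cells, had 49.6, 48.5 and 51.9 FPKM in irradiated cultures, against 64.1, 65.8 and 69.5 FPKM in control cultures (-0.40 ± 0.044, adjusted p = 0.000162). Slc7a5, the transporter of large neutral amino acids, had 68.4, 71.2 and 76.9 FPKM in irradiated cultures, against 96.6, 98.1 and 95.2 FPKM in control cultures (-0.42 ± 0.051, adjusted p = 0.000325). Cars, a cysteinyl-tRNA synthetase, had 23.7, 24.6 and 27.0 FPKM in irradiated cultures, against 33.3, 33.5 and 33.5 FPKM in control cultures, with hardly any spread among controls (-0.40 ± 0.050, adjusted p = 0.000371). Trib3, a target of the stress factor Atf4, changed by -0.64 ± 0.10 and Aldh1l2, of mitochondrial folate metabolism, by -0.57 ± 0.097. Atf4 itself, Phgdh and Psat1 were also among the lower members.

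Chaperones of the cytosol and mitochondria were lower, and those of the endoplasmic reticulum were not. 12 of 18 tested heat shock genes were lower (median -0.29). Hspd1, the mitochondrial chaperonin, had 297, 345 and 376 FPKM in irradiated cultures, against 465, 477 and 431 FPKM in control cultures (-0.44 ± 0.074, adjusted p = 0.00182), and Tcp1, a subunit of the cytosolic chaperonin, had 202, 222 and 242 FPKM in irradiated cultures, against 276, 276 and 264 FPKM in control cultures (-0.30 ± 0.057, adjusted p = 0.00335). Hsph1 and Hspa9 changed by -0.42 ± 0.077 and -0.39 ± 0.065. In the list of protein folding in the endoplasmic reticulum, 6 of 21 were higher (median 0.076). Xbp1, the factor of the unfolded protein response and of secretory cells, had 147, 144 and 141 FPKM in irradiated cultures, against 124, 122 and 119.6 FPKM in control cultures (0.24 ± 0.037, adjusted p = 0.000952). That count was 3 without control 2 or control 3, 2 without irradiated 2 and 2 with only these 6 libraries fitted.

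Mitochondrial metabolism shifted by small amounts. Citrate cycle genes were lower in 8 of 17 cases (median -0.13), with Fh1, fumarase, at 78.1, 78.7 and 81.0 FPKM in irradiated cultures, against 89.5, 97.3 and 99.4 FPKM in control cultures (-0.26 ± 0.048, adjusted p = 0.0025). The count was 2 without control 2, 4 without irradiated 1, 5 without irradiated 2, 14 without irradiated 3 and 2 with only these 6 libraries fitted. Of the oxidative phosphorylation list, 9 of 32 tested members were lower (median -0.092), led by Cycs, cytochrome c, at -0.33 ± 0.064. That count was 3 without control 2, irradiated 1 or irradiated 2, 5 without control 3, 15 without irradiated 3 and 1 with only these 6 libraries fitted. In glycolysis, besides Hk3, the glucose transporter Slc2a3 was lower at 34.0, 36.8 and 43.8 FPKM in irradiated cultures, against 58.2, 56.5 and 57.4 FPKM in control cultures (-0.58 ± 0.084, adjusted p = 0.000768) and the general hexokinase Hk1 higher (0.28 ± 0.042). Of 23 glycolysis genes 5 were higher and 2 lower, beside 14.2% higher and 16.0% lower of all genes tested. Without control 2 or irradiated 1, 3 were higher, and without control 2, control 3, irradiated 1 or irradiated 2, 1 was lower.

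Proteasome and chromatin genes were lower in part. Of the proteasome list 9 of 23 were lower (median -0.14), while the immunoproteasome subunit Psmb8 had 152, 147 and 165 FPKM in irradiated cultures, against 114, 123.2 and 128 FPKM in control cultures and was higher (0.34 ± 0.054, adjusted p = 0.00122). The lower count was 2 without control 2, 3 without irradiated 1, 16 without irradiated 3 and 0 with only these 6 libraries fitted. Of the DNA methylation and Polycomb list, 7 of 23 were lower (median -0.12), and 4 without control 2 or with only these 6 libraries fitted. Ezh2, the methyltransferase of Polycomb complex 2, had 36.5, 40.9 and 45.7 FPKM in irradiated cultures, against 55.3, 58.5 and 51.4 FPKM in control cultures (-0.42 ± 0.071, adjusted p = 0.00166) and its partner Eed changed by -0.28 ± 0.042. Dnmt3b, a de novo DNA methyltransferase, had 7.93, 9.76 and 11.0 FPKM in irradiated cultures, against 14.2, 14.8 and 13.2 FPKM in control cultures (-0.52 ± 0.099, adjusted p = 0.0032).

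Myc, which drives growth and ribosome production, was lower, with 102, 119 and 143 FPKM in irradiated cultures, against 152, 160.3 and 145 FPKM in control cultures (-0.34 ± 0.10, adjusted p = 0.0271). The third irradiated library lay close to the lowest control. The call was lost without control 1, control 2, irradiated 1 or irradiated 2 (adjusted p up to 0.103) or with only these 6 libraries fitted (adjusted p = 0.0788), and the change without irradiated 1 was -0.22. Mxd4 and Mxi1, which oppose Myc, were higher: Mxd4 had 14.7, 14.4 and 14.2 FPKM in irradiated cultures, against 8.64, 8.72 and 8.86 FPKM in control cultures (0.67 ± 0.066, adjusted p = 0.000107) and Mxi1 changed by 0.29 ± 0.062. Mxd3, another member of the Mxd family, was not called (-0.25 ± 0.088, adjusted p = 0.0513), and without irradiated 3 it was called lower, like Myc (adjusted p = 0.00913). Mlx, a partner of Mxd proteins, rose by 0.39 ± 0.046.

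Some Notch genes were called. Notch1 had 18.4, 15.6 and 13.05 FPKM in irradiated cultures, against 13.7, 12.3 and 12.96 FPKM in control cultures, with irradiated 1 above the control range and irradiated 3 within it (0.24 ± 0.091, adjusted p = 0.06). The irradiated range of Notch2 spanned its control range (-0.047 ± 0.096, adjusted p = 0.746). Of 21 tested genes of the pathway 4 were higher and 1 lower (median 0.11), beside 14.2% higher and 16.0% lower of all genes tested. The higher ones were the gamma-secretase genes Ncstn, Psen2 and Aph1a and the inhibitor Numb, none of them by more than 0.28 ± 0.081. None of these 4 was called without control 2, without irradiated 1 or with only these 6 libraries fitted (Numb adjusted p up to 0.0941), and the count of higher members was 2 without irradiated 2 and 8 without irradiated 3. Jag2, a ligand, was lower at 1.19, 1.69 and 1.24 FPKM in irradiated cultures, against 2.26, 2.26 and 2.03 FPKM in control cultures (-0.43 ± 0.10, adjusted p = 0.0103). Of the Notch targets Hes1 was below the filter, and of the 7 tested only Myc was called; Hes6 and Nrarp overlapped (0.11 ± 0.067 and -0.18 ± 0.13).

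Chemokine ligands were higher in 7 of 11 cases (median 0.65; 4 without irradiated 1), with Cxcl16 at 1.01 ± 0.17 beside Pf4 and Ppbp, and chemoattractant receptors in 5 of 13, with C3ar1 at 1.123 ± 0.20. Interferon response genes were higher in 5 of 19 cases (median 0.18), led by Ifit2 at 0.39 ± 0.074, and in 3 without control 2, 2 without irradiated 1, 9 without irradiated 3 and 3 with only these 6 libraries fitted. Glucocorticoid-responsive genes were higher in 5 of 11 cases, with Sgk1 at 0.89 ± 0.17, and in 3 without control 2 or irradiated 1. Integrins were higher in 3 of 14 cases, with Itgb5 at 0.72 ± 0.16, and in 8 without irradiated 3. In the lists of JAK-STAT feedback, inflammatory cytokines, immediate early genes, apoptosis, MHC class II, tetraspanins and imprinted genes, at most 3 members of each were called in either direction. Of the E proteins and their Id inhibitors, 3 of 6 tested were lower. T and NK genes were higher in 3 of 7 cases (median -0.077), namely Nkg7, Gzmb and Thy1, of which Nkg7 is in the azurophil list as well. That count was 1 without control 1 or irradiated 2, and 2 with only these 6 libraries fitted. Stromal and endothelial genes were higher in 2 of 3 cases, Vwf and Pecam1. Beside all counts of this paragraph stand 14.2% higher and 16.0% lower of all genes tested. Without control 3, 8 immediate early genes were higher, and without irradiated 3, 5 apoptosis genes were. In every other fit without 1 library, all these lists from JAK-STAT feedback on had at most 5 members called in a direction. Of their members, Pim2, a kinase induced by cytokines, fell (-0.59 ± 0.12, adjusted p = 0.00488) and Tnf fell (-0.38 ± 0.093, adjusted p = 0.0107).

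The size of the response differed among the irradiated libraries. Among higher genes the median difference from the control mean was 0.45 in irradiated 1, 0.36 in irradiated 2 and 0.27 in irradiated 3, and among lower genes -0.37, -0.25 and -0.17. Measured in the direction of each gene's own change, irradiated 3 had moved least from the control mean for 66.5% of higher and 74.5% of lower genes. It had done so for 51.6% of genes not called. Genes such as Elane, Mpo, Cebpe and Gfi1 were highest in irradiated 2, whereas Lyz2, Csf1r, Ctsb, Mrc1 and Trem2 were highest in irradiated 1. Without irradiated 3, 4743 genes were called, of which 3403 were among the 3601.

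**Figure D4:**
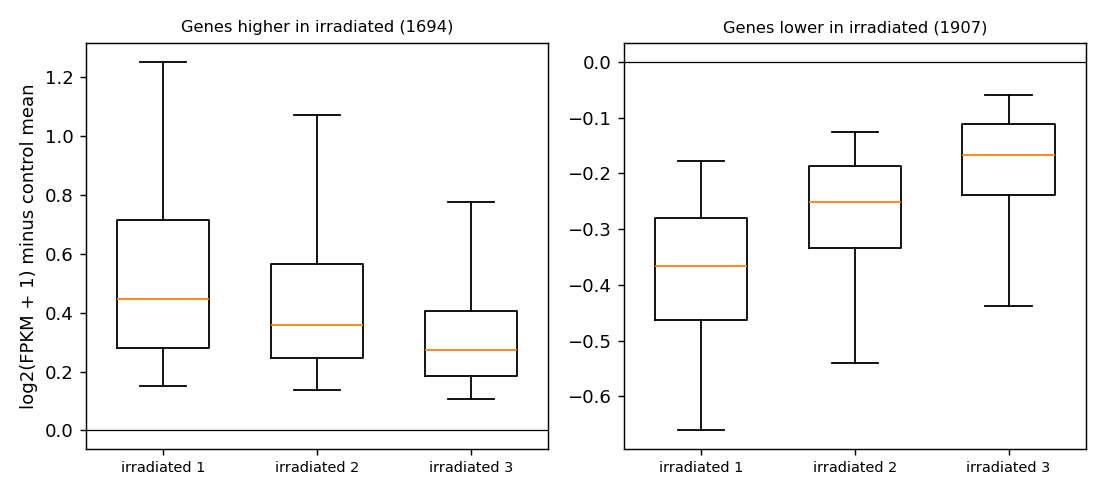
Difference of log2(FPKM + 1) from the mean of the 3 controls in each irradiated library (vertical axes), for the 1694 genes called higher on the left and the 1907 called lower on the right. Boxes span the quartiles with the median as a line and whiskers the 5th to 95th percentiles over genes, which were chosen by these same libraries; the median lies nearest to 0 in irradiated 3 and farthest in irradiated 1 on both sides.

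With DL1, irradiation gave fewer calls. In irradiated against control cultures with DL1, 371 of the same genes passed, or 3.11%, of which 298 were higher and 73 lower. Of the genes higher without DL1, 271 were also higher with it, which is 16.0% of the higher genes without DL1 and 90.9% of those with DL1. Of the lower genes, 52 were shared, or 2.73% without DL1 and 71.2% with DL1. The median over all genes tested was -0.016 with DL1. The lists of mitosis, replication, repair and ribosome biogenesis had medians between -0.056 and -0.13 there. Several myeloid lists had medians with DL1 that were farther from 0 than those of these lists. Azurophil genes had a median of 0.44 with 9 of 13 called higher, late granule genes 0.55 with 7 of 20, macrophage genes 0.58 with 8 of 26 and complement and efferocytosis genes 0.30 with 4 of 16. Of these, the late granule median was higher with DL1 than without it, a difference that was not tested. The C/EBP family had a median of 0.41 with DL1, where 3 of 7 were called higher, against -0.043 without it. A call in one setting and none in the other does not show a difference, which was tested gene by gene.

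That test called 10 genes, 0.0837% of those tested, of which 7 had a more negative and 3 a more positive change after irradiation with DL1 than without it. With the replicate number as a block, 6 genes were called, of which 4 were among the 10. Pf4 had 43.1, 47.5 and 61.2 FPKM in irradiated cultures with DL1, against 76.9, 74.0 and 68.7 FPKM in control cultures with DL1. There all irradiated libraries lay below all controls, at a change of -0.54 ± 0.14 that was not called, against the rise of 1.35 ± 0.14 without DL1. The difference was -1.89 ± 0.20, adjusted p = 0.00926. Ppbp had 9.09, 7.58 and 11.5 FPKM in irradiated cultures with DL1, against 12.7, 14.7 and 16.9 FPKM in control cultures with DL1, also not called there (difference -2.17 ± 0.28, adjusted p = 0.0139). Myl10 and Cd63 rose in both settings but less with DL1, by 0.53 ± 0.13 and 0.48 ± 0.073 there (differences -1.46 ± 0.18, adjusted p = 0.0139 and -0.81 ± 0.10, adjusted p = 0.0139).

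Gas6 and Fabp4 were near 0 in all cultures with DL1, where the log2(FPKM + 1) scale understates any change. Gas6 had 0.207, 0.172 and 0.0533 FPKM in irradiated cultures with DL1, against 0.0288, 0.0516 and 0.0727 FPKM in control cultures with DL1 (difference -1.53 ± 0.22, adjusted p = 0.0261), and Fabp4 had 0.0634, 0 and 0.114 FPKM in irradiated cultures with DL1, against 0.0615, 0 and 0.124 FPKM in control cultures with DL1 (difference -0.99 ± 0.14, adjusted p = 0.0261). Aqp9 fell in both settings, less so with DL1, where it had 16.4, 16.2 and 15.9 FPKM in irradiated cultures with DL1, against 22.2, 22.0 and 21.7 FPKM in control cultures with DL1 (difference 0.46 ± 0.070, adjusted p = 0.0349). Hpgd, which inactivates prostaglandins, had 1.03, 0.690 and 0.708 FPKM in irradiated cultures, against 1.96, 1.81 and 2.60 FPKM in control cultures without DL1. It had 2.44, 2.41 and 1.91 FPKM in irradiated cultures with DL1, against 1.34, 1.73 and 1.59 FPKM in control cultures with DL1, a change of 0.35 ± 0.12 that was not called (difference 1.13 ± 0.16, adjusted p = 0.0261). Leaving out single libraries of the 4 groups gave between 0 and 203 such genes, 0 without irradiated 2 or without the second irradiated library with DL1, and 203 without irradiated 3. Pf4 was called in 10 of 12 such fits, Myl10 in 9, Cd63 in 7 and each of the others in 6 or fewer.

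**Figure D5:**
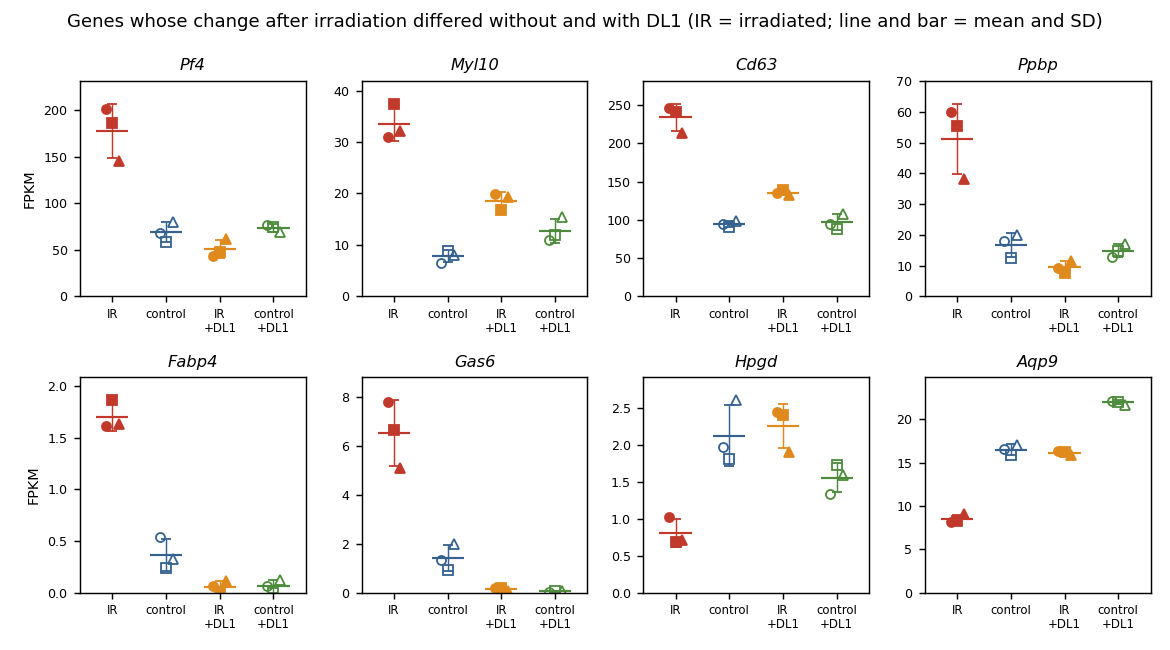
FPKM in each library of the 4 cultured groups for the 8 genes with the smallest p for a different change after irradiation with and without DL1; in each panel irradiated (IR) stands left of control, first without and then with DL1, with replicates as circles, squares and triangles, means as lines and SD as bars (n = 3). Pf4, Ppbp, Myl10, Cd63, Gas6 and Fabp4 are highest in irradiated cultures without DL1, and Hpgd and Aqp9 lowest there.

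Before culture, few genes passed the test. In freshly sorted LSK cells 13 of 12903 genes passed between irradiated and control mice, or 0.101%, with 886 at an unadjusted p under 0.05. Of these 13, 12 were also tested in the cultures and 4 were called there, each in the same direction as in fresh cells. Over all genes tested in the cultures, 30.1% were called. Gfi1b and Tjp1, at 0.81 ± 0.097 and 1.57 ± 0.14 in fresh cells, were not called in culture. They changed the other way there, by -0.31 ± 0.13 and -0.11 ± 0.11. The rest of the 12 kept their sign. Nkg7 and Hk3, among the clearest cultured genes, were higher in fresh cells at 0.78 ± 0.093, adjusted p = 0.0238 and 0.62 ± 0.082, adjusted p = 0.0477. Cdkn2c, which blocks kinases of the G1 phase, was higher in fresh cells at 0.78 ± 0.073, adjusted p = 0.00741, and in culture it had 9.62, 8.45 and 10.2 FPKM in irradiated cultures, against 7.08, 6.64 and 8.05 FPKM in control cultures, with the lowest irradiated library just above the highest control. Hif3a, a hypoxia-inducible factor, was lower in fresh cells (-1.58 ± 0.15, adjusted p = 0.00741), and in culture it had 0.645, 0.675 and 0.517 FPKM in irradiated cultures, against 1.68, 1.57 and 1.48 FPKM in control cultures (-0.68 ± 0.092, adjusted p = 0.000576). The tables were normalized apart, so no test was made between them. Fresh medians were 0.28 for azurophil, 0.15 for macrophage, 0.035 for lysosomal, 0.066 for lipid handling and 0.033 for alternative activation genes, against 0.011 over the 11465 genes tested in both tables. Late granule, complement and mitotic genes had fresh medians of -0.18, -0.039 and 0.17, each opposite in sign to the cultures.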

How the data were processed

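RNA sequencing of 18 mouse samples was deposited by the authors as FPKM values per gene name, in a table of 12 cultured and another of 6 fresh libraries, each normalized separately. TopHat 1.4.1, Cufflinks 1.3.0 and Cuffdiff, with no version given, are named in the submitters' processing notes. Those notes also name hg19, a human build, for these mouse samples. The build and annotation used are not given in the sources used here. No per-sample column was left unmapped; the cultured column IR1DL1 was taken for the sample titled IRDL1.

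The test used limma 3.58.1 (R 4.3.3) on log2(FPKM + 1), let the prior variance follow mean expression, and applied Benjamini-Hochberg adjustment over the 11945 genes with a mean of at least 1 FPKM, at an adjusted p of 0.05. A gene with a mean under 1 FPKM in 1 group could pass this filter through the other group. Among those named, Fabp4, Gata1 and Vwf passed through irradiated and Hif3a, Hpgd and Ap1m2 through control cultures. One fit held the 12 cultured libraries, whose 4 groups share 1 estimate of the spread, and fresh cells had a fit of their own. Each cultured library came from 1 mouse, so the spread holds differences between mice together with those of culture, sort and library. The main fit treated all libraries as independent, although those of the same number with and without DL1 could share a mouse. The fit was tested on simulated data. FPKM hold no read counts, so the depth behind a value is known only relative to other libraries, and no counting interval can be given. Names of 19785 rows matched a current symbol of RefSeq and 2986 an older one, while 2858 matched none. The 123 rows that join several gene names cannot be assigned to 1 gene.

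Genes with values are the 12 of smallest p in each direction, the 6 of largest FPKM change in each direction, up to 5 of smallest p per list, a fixed set of lineage and pathway genes and the 8 of smallest p for the difference with DL1, of which the text gives a part. Cdkn2c, Tjp1, Cma1, Tpsb2, Ap1m2, Sgsh and members named without values were chosen after their values were seen. The members and the 57 lists, with 930 tested genes of which 69 are in several lists, were chosen with earlier results of these data known. Results of some list members are not reported here. Counts of lists are to be read against the shares over all genes tested, 14.2% higher and 16.0% lower. No list was tested.

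Alternatives were other pseudocounts, filters and scaling, no trend, a fit of 6 libraries, a replicate block and leaving out each library. Correlations of deviations between irradiated and control libraries of the same number lay within the range of such pairs of different numbers. So did those between controls with and without DL1. Those between irradiated libraries with and without DL1 lay above the range of such pairs of different numbers.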

Additional observations from a re-analysis of the deposited data

Results flagged for a closer look

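For 10 genes the change after irradiation differed between cultures with and without DL1 (limma, adjusted p under 0.05 over 11945 genes). The log2 difference, as the change with DL1 minus the change without it, was -1.89 for Pf4, -2.17 for Ppbp, -1.46 for Myl10, -1.53 for Gas6, -0.99 for Fabp4, -0.81 for Cd63 and -0.58 for Sgsh, a lysosomal sulfatase. It was 1.13 for Hpgd, 0.79 for Ap1m2, an adaptor subunit of membrane traffic, and 0.46 for Aqp9. With DL1, Gas6 and Fabp4 were near 0 in every culture, so the size of their differences depends on the log2(FPKM + 1) scale. Of 6 other settings with all libraries of the groups, Gas6 was called in 3 and Fabp4 in 4. Ap1m2 had 1.36, 1.22 and 1.11 FPKM in irradiated cultures with DL1, against 0.718, 0.663 and 0.703 FPKM in control cultures with DL1. Without DL1 it had 0.807, 0.822 and 0.703 FPKM in irradiated cultures, against 1.16, 1.60 and 1.28 FPKM in control cultures, so that the irradiated libraries lay above the controls with DL1 and below them without it. Its change was 0.39 ± 0.086 with DL1 and -0.40 ± 0.086 without it, and both were called.

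Leaving out each of the 12 libraries in turn kept the difference of Pf4 in 10 fits, Myl10 in 9, Cd63 in 7, Ppbp in 6, Hpgd in 4, Fabp4 and Gas6 in 2 each, and Aqp9, Ap1m2 and Sgsh in 1 each. The second irradiated library with DL1 was the shallowest of the cultures, at 0.488 of the depth of the first control, and without it 0 of these differences were called.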

How the results depend on the processing

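Against 3601 genes, 3160 to 3590 genes were called under other pseudocounts, no filter or a filter of 5 FPKM, median-ratio scaling, no mean-variance trend and without the shallowest other library. The fit of 6 libraries called 1657 genes, of which 1645 were among the 3601 in the same direction, with fewer samples to estimate the spread. Requiring a log2 fold change of 1 or more in size left 85. Leaving out each library gave 1930 to 4743 calls. The cause of these shifts was not tested. The difference with DL1 gave 10 genes, against 19 with a pseudocount of 5, 5 with a filter of 5 FPKM, 16 without the trend and 0 to 203 without single libraries. An unadjusted p under 0.05 was reached by 1253 genes there. Fresh cells gave 13 genes, 4 without the filter and 5 to 14 without single libraries.

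Irradiated and control libraries of the same number deviated with r of 0.149, 0.144 and -0.127, and irradiated libraries with and without DL1 with r of 0.230, 0.164 and 0.359. For different numbers these r were -0.426 to 0.329 and -0.240 to 0.036. Controls of the same number with and without DL1 had r of -0.057, -0.027 and 0.098. With the replicate block, 3449 genes were called in culture without DL1, 6 for the difference with DL1 and 9 in fresh cells. Of 4210 values of the 283 genes chosen by rule under the alternatives run, 3931 kept direction and side of the threshold, 245 lost the call, 34 gained it and 0 reversed. What depth limits could not be measured, since FPKM hold no read counts.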
